A study of Homo sapiens with 6 samples.

Results

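The 90 probe sets described here measure the messenger RNAs of the cytosolic ribosomal proteins, out of 22215 probe sets tested on the array. A probe set was taken when the platform annotation gave it a single gene symbol, and that symbol was RPL or RPS with a number (with or without A, X or L1 at the end), RPLP0, RPLP1, RPLP2 or RPSA. S6 kinases, the Y-linked RPS4 copies and pseudogenes were left out. The rule used names alone and no measured value, though it was set with earlier results of these data known. The members stood for 52 genes, 32 of the large subunit with 53 probe sets and 20 of the small subunit with 37 probe sets. A further 57 probe sets listed a ribosomal protein gene among several symbols and were not used in the counts. For 43 of them the added symbols were all small nucleolar RNAs or microRNAs.

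The 6 arrays addressed whether a short exposure to unconjugated bilirubin (UCB) moved these transcripts. All flasks held SH-SY5Y cells, an established human neuroblastoma line that serves as a neuron-like model, and all media contained 0.6% DMSO for 4 h. Free bilirubin was present at 140 nM in the medium of 3 flasks (Bf 140 nM), and the other 3 flasks received the solvent only (DMSO 0.6%). The labels call the replicates independent and biological. They come from 1 cell line, so the spread between them is that of repeated cultures. Of 9 measured markers of noradrenergic neuroblastoma, 8 stood above the median probe set, with HAND2 as the exception. Of 8 mesenchymal or Schwann-like markers 5 did, and none of 3 blood markers did. In such bulk samples, fewer cells of a type and less RNA per cell cannot be told apart.

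Each cytosolic ribosome is built from a small subunit, which reads the messenger RNA, and a large subunit, which joins amino acids. Its proteins are made in matched amounts, and their transcripts are among the most abundant of a growing cell. Most of these transcripts begin with a C followed by an unbroken stretch of pyrimidines, the 5' terminal oligopyrimidine (TOP) motif, through which the mTOR pathway controls their translation. Control of that kind acts on translation, while an array measures the amount of transcript.

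Below are the start sites of 9 genes that the results turn on, with 3 whose annotated start does not match the pattern defined next. Each line holds 28 bases of the gene's strand, 12 before and 16 from the RefSeq start on GRCh38.p14, and capitals mark the unbroken run of C and T at the start where it begins with C and has at least 4 more pyrimidines.
RPL38: ggaagtctcgttCTTTTTCgtccttttc
RPL37A: ccgcgtctcttcCTTTCTgggctcggac
RPL27A: gcgaaggccttcCTTTTTCgtctgggct
RPLP2: cgtcggcgccttCCTTTTCCTCCCTgtc
RPL14: cgggtcttcttcCTTCTCgcctaacgcc
RPL31: atccttcgcgctCTTCCTTTCCaacttg
RPS10: cgcatgctccttCCTTTCCagccccggt
RPL36: cgcggcgccagcCCTTCCgccacggccg
RPS6: cggaagttggccCTCTTTTCCgtggcgc
RPS7: tccgccctcctcctcgcgctgtttccgc
RPS28: ccgaagcacgtgactcctctccgccaga
RPL26L1: cttccaggggtcggcgaacgaaacgcgg

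The windows lie at chr17:74203666-74203693 on the plus strand (RPL38), chr2:216498832-216498859 plus (RPL37A), chr11:8682780-8682807 plus (RPL27A), chr11:809955-809982 plus (RPLP2) and chr3:40457327-40457354 plus (RPL14). Those of RPL31 (chr2:101002277-101002304, plus), RPS10 (chr6:34426054-34426081, minus), RPL36 (chr19:5690283-5690310, plus) and RPS6 (chr9:19380221-19380248, minus) follow. RPS7 (chr2:3575248-3575275, plus), RPS28 (chr19:8321484-8321511, plus) and RPL26L1 (chr5:172958717-172958744, plus) do not carry the pattern. Each covers the end of the upstream region and the first bases of the annotated first exon. The RefSeq table held start sites for 46 of the 52 genes. Missing from it were RPL23A, RPL30, RPL37, RPL7, RPL8 and RPS15A. The pattern, searched on the gene's strand only, was present at a start of 33 of these 46 genes (71.7%), against 5.14% of all 27305 genes in the table. Counted over start sites it was 33 of 54 (61.1%) against 4.07% of 35116. It was found in 19 of 27 large subunit genes and in 14 of 19 small subunit genes, with runs of 5 to 19 bases and a median of 8. The 13 genes without it were RPL10A, RPL19, RPL26L1, RPL27, RPL3, RPL32, RPL6, RPL9, RPS15, RPS28, RPS29, RPS4X and RPS7. A match describes letters at an annotated start, not a measured start site. A pyrimidine run that begins later, as in RPS28, was not counted.

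The ribosomal protein probe sets were among the brightest on the arrays. Values are the deposited normalised intensities on a log2-like scale. On it, 1 unit is close to a doubling for bright probe sets and less than the true change for dim ones. The highest value on any array, 15.18, belonged to a member, on DMSO 0.6% replicate 3. Whether values near that top also understate changes was not tested. The mean over the 6 arrays was above 13 for 62 members (68.9%), a level reached by 1.46% of all probe sets. It lay between 10 and 13 for 7 members and under 10 for 21, of which 12 were below the median probe set at 7.97. Member means ran from 6.19 to 14.71 with a median of 13.71. A filter keeping probe sets above the median would retain 78 of the 90. Probes differ in brightness, so these levels place the probe sets on the array and do not rank the genes by transcript amount.

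Values of the members followed the replicate number more closely than the medium. Taking each probe set relative to its own mean over the 6 arrays, the median deviation of the 90 members was -0.05, -0.14 and 0.13 in Bf 140 nM replicates 1, 2 and 3. In DMSO 0.6% it was -0.04, -0.12 and 0.19. Both replicate 3 arrays were thus high and both replicate 2 arrays low, whichever medium the cells had received. The highest value fell on a replicate 3 array for 75 of 90 members, against 35.7% of all probe sets, and for 50 it was the DMSO 0.6% replicate 3 array (15.9% of all). The lowest value fell on a replicate 2 array for 66 members, against 27.6% of all probe sets. Both subunits showed this order. In Bf 140 nM replicates 1 to 3 the large subunit had median deviations of -0.07, -0.15 and 0.14 and the small subunit -0.04, -0.13 and 0.12. In DMSO 0.6% the values were -0.06, -0.10 and 0.22 for the large subunit and -0.01, -0.13 and 0.14 for the small subunit.

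**Figure D1:**
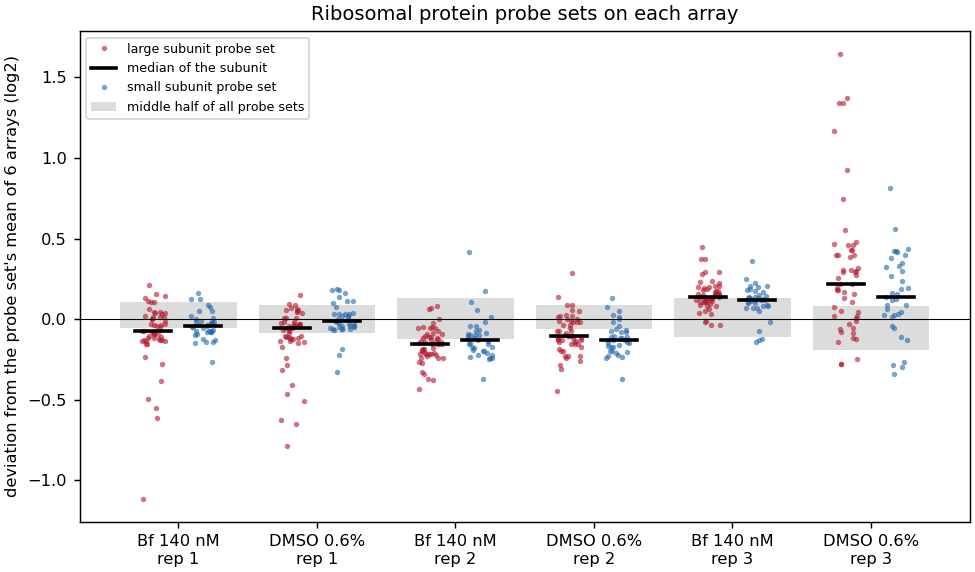
Deviation of each ribosomal protein probe set from its own mean over the 6 arrays (log2 scale), by array, for the large and the small subunit. Points are probe sets, black bars are medians, and the grey band is the middle 50% of all probe sets. The replicate 3 arrays of both groups lie highest and the replicate 2 arrays lowest.

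The array with the highest ribosomal protein values also stood apart in its control probe sets, which read transcripts at both ends. The 3' minus 5' difference of beta-actin was 0.24, 0.49 and 0.89 in Bf 140 nM replicates 1, 2 and 3 and 0.10, 0.32 and 2.21 in DMSO 0.6%. For GAPDH it was 0.20, 0.22 and 0.38 against 0.19, 0.10 and 1.30. DMSO 0.6% replicate 3 was the highest array in both. The hybridisation spike bioC, which is added to every sample, read 8.42, 9.64 and 10.23 in Bf 140 nM and 8.44, 9.62 and 10.34 in DMSO 0.6%, close between arrays of one number and apart between numbers. Spike bioB read 8.43, 8.62 and 9.12 in Bf 140 nM and 8.52, 8.71 and 9.24 in DMSO 0.6%. In each group bioB, bioC, bioD and cre all read highest on replicate 3, where bioD read 12.20 in Bf 140 nM and 12.51 in DMSO 0.6%. Otherwise bioD was grouped less clearly by number. Its replicates 1 and 2 read 11.77 and 11.72 in Bf 140 nM and 11.62 and 11.66 in DMSO 0.6%. For cre, replicates 1 and 2 read 13.39 and 13.29 in Bf 140 nM and 13.37 and 13.30 in DMSO 0.6%. These were close between arrays of one number. Replicate 3 of cre was further apart, at 13.58 in Bf 140 nM and 13.91 in DMSO 0.6%. Array medians averaged 7.98 ± 0.04 in Bf 140 nM and 7.94 ± 0.08 in DMSO 0.6% (SD, n = 3 each). No difference between the groups was found by an exact two-sided permutation test in the beta-actin difference (p = 0.9), the GAPDH difference (p = 1), the array median (p = 0.5) or the interquartile range (p = 0.8). The smallest p that 3 against 3 arrays allow is 0.1. The part of these measures in the ribosomal protein values was not tested.

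Between Bf 140 nM and DMSO 0.6%, no ribosomal protein probe set passed the test. With limma across all 22215 probe sets and Benjamini-Hochberg adjustment, 0 of 90 members had an adjusted p under 0.10, as did 0% of all probe sets. At an unadjusted p under 0.05 there were 0 members and 0.0765% of all probe sets. The latter is 17 of 22215, far fewer than the fraction of 0.05 that evenly spread p-values would give. With the replicate number as a block, no adjusted p passed either, and the members under an unadjusted 0.05 were 3, the RPL38 probe sets 202028_s_at and 221943_x_at and the RPL37A probe set 214041_x_at, each lower in Bf 140 nM. The whole-array share was 0.414%, and 0.0945% for probe sets lower in Bf 140 nM. The 3 are among the widest-spread members described below. The 0.414% is 92 of 22215, also far below that fraction, so few calls do not show unchanged transcripts. The cause of these low shares was not tested. Standard errors (SE) and intervals below are from the unpaired fit and ignore the replicate number. With the block the SE fell from 0.58 to 0.15 for RPL37A 214041_x_at and rose from 0.098 to 0.115 for RPL36 219762_s_at.

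The differences that were measured were small. The median member difference, Bf 140 nM minus DMSO 0.6%, was -0.038 with quartiles of -0.10 and 0.03, beside 0.03 for all probe sets. The difference was below 0 for 60 of 90 members, against 36.8% of all probe sets, and by gene median for 34 of 52 genes. That split depended on the scaling, with 68 of 90 below 0 after each array's median was subtracted and 45 of 90 after quantile normalisation. The shares of all probe sets below 0 under these scalings are not given, so these counts are not read as results about the members. The member median under these scalings was -0.071 and -0.00065, beside -0.0018 and -0.0016 for all probe sets. Members are brighter than most probe sets, and no share matched for brightness is given here or below. Among probe sets above the median level, the median difference was -0.039 for 78 members and 0.053 for all 11107. On the measured scale, the unpaired 95% confidence interval lay within 1.5-fold in either direction for 79 members and within 2-fold for 84. Some of these members are dim, and for them the scale understates changes. Whether it does so for the brightest was not tested, so larger true changes are not excluded. The outermost bounds were 0.280-fold and 1.95-fold. The sign of the median rested on single arrays. Without DMSO 0.6% replicate 3 the median was 0.05 and 21 of 90 members were below 0. Without Bf 140 nM replicate 2 it was 0.03 with 36 below 0. Without Bf 140 nM replicate 3 it was -0.11 with 73 below 0, and without both replicate 3 arrays it was -0.014 with 54 below 0. In the same order, the median of all probe sets was 0.0083, 0.030, 0.036 and 0.0056.

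**Figure D2:**
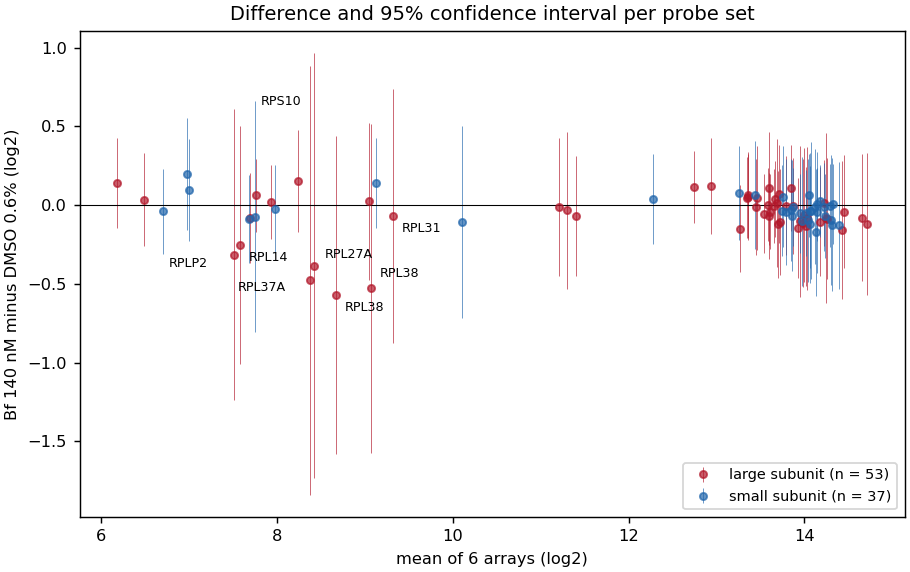
Difference between Bf 140 nM and DMSO 0.6% (log2 scale) for each of the 90 probe sets against its mean over the 6 arrays, with 95% confidence intervals, coloured by subunit. The probe sets spanning more than 1 log2 unit over the arrays are named. All lie below a mean of 10 and have the widest intervals, and every interval includes 0.

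The large and the small subunit had close medians. The median difference was -0.042 over the 53 large subunit probe sets, with 34 below 0, and -0.035 over the 37 small subunit probe sets, with 26 below 0. After quantile normalisation the small subunit median was 0.014. The large subunit median minus the small subunit median was -0.0067, and by replicate number it was 0.04, -0.07 and -0.02. Pair 1 thus had the opposite direction to pairs 2 and 3. With DMSO 0.6% replicate 1 left out it was -0.08, with DMSO 0.6% replicate 3 left out 0.02, and over the probe sets ending in plain _at alone 0.06.

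Taken by replicate number, the 3 pairs of flasks gave member medians of -0.02, -0.02 and -0.07, where all probe sets gave 0.03, -0.0043 and 0.04. The members below 0 numbered 54, 50 and 54 of 90, beside 42.7%, 50.9% and 42.5% of all probe sets. For the large subunit the pair medians were 0.0065, -0.06 and -0.08, and for the small subunit -0.03, 0.0032 and -0.06. Pair 1 held sets that lay on one side of 0. Of the bright small subunit probe sets, all 28 with a mean above 13 were lower in Bf 140 nM, with a median of -0.042, but only 14 of the 28 after quantile normalisation. The 7 members with means between 10 and 13 were all higher in Bf 140 nM in pair 1, with a median of 0.06, and 6 of them were lower in pair 2. In pair 2 the 28 bright small subunit probe sets split into 14 below and 14 above 0. Across members the pair differences had little in common. Pearson's r over the 90 probe sets, which share arrays and brightness, was -0.02 between pairs 1 and 2, 0.10 between pairs 1 and 3, and -0.15 between pairs 2 and 3. Members lower in all 3 pairs numbered 18, against 4.7% of all probe sets, and members higher in all 3 pairs numbered 6, against 8.96%. With array medians subtracted these counts were 25 and 5, and after quantile normalisation 13 and 11. The shares of all probe sets under these scalings are not given, so the rescaled counts are not read as results about the members.

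The 18 lower in all 3 pairs held 11 large and 7 small subunit probe sets. Those of the large subunit belonged to RPL7 (both of its probe sets), RPL38 (2 of 3), RPL9, RPL22, RPL24, RPL34, RPL35, RPL37A and RPL39. Those of the small subunit belonged to RPS7 (both), RPS4X, RPS12, RPS15A, RPS27 and RPS28. Apart from the dim RPL38 and RPL37A probe sets, their differences ran from -0.17 to -0.05. RPL7, a large subunit protein, had both probe sets lower in all 3 pairs on the deposited values and under both scalings. Probe set 212042_x_at read 13.22, 13.02 and 13.33 in Bf 140 nM and 13.30, 13.25 and 13.46 in DMSO 0.6%, a difference of -0.15 (SE 0.12), or -0.07 without Bf 140 nM replicate 2. Probe set 200717_x_at read 14.07, 13.96 and 14.32 against 14.14, 14.07 and 14.47, a difference of -0.11 (SE 0.15), or 0.01 without DMSO 0.6% replicate 3. The groups overlapped in both. The 6 higher in all 3 pairs were single probe sets of RPL35A, RPL36, RPL38, RPS6, RPS14 and RPS28.

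**Figure D3:**
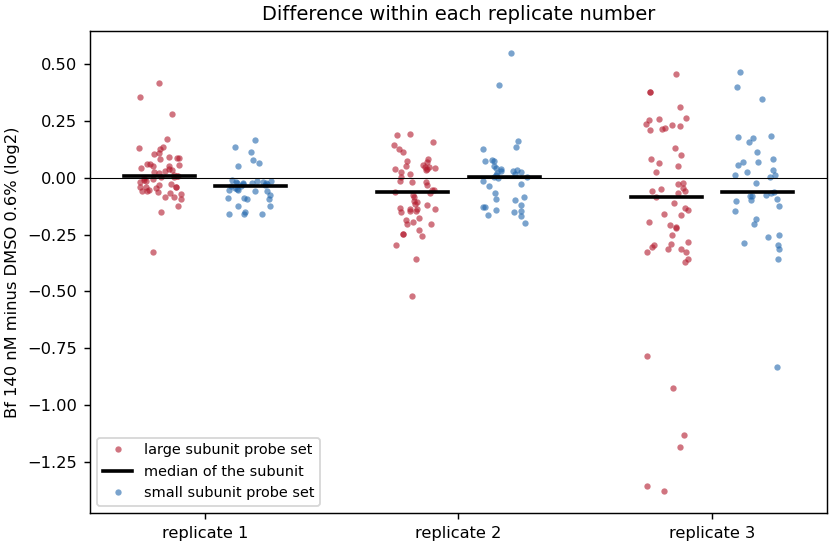
Difference between Bf 140 nM and DMSO 0.6% (log2 scale) for each ribosomal protein probe set within replicate numbers 1, 2 and 3, by subunit, with medians as black bars. In pair 1 the small subunit points lie mostly below 0 and the large subunit points around 0, and in pair 3 a tail of large subunit points reaches below -1.

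The one probe set whose groups did not overlap was that of RPL36, a large subunit protein. Probe set 219762_s_at read 12.76, 12.72 and 12.93 in Bf 140 nM and 12.70, 12.67 and 12.69 in DMSO 0.6%. The means were 12.80 ± 0.11 and 12.69 ± 0.01 (SD, n = 3 each), a ratio of 1.08 with a 95% interval of 0.92 to 1.27. The difference of 0.11 was 0.05 without Bf 140 nM replicate 3. All 3 Bf 140 nM arrays lay above all 3 DMSO 0.6% arrays in 1 of 90 members, beside 1.68% of all probe sets, and all 3 lay below in 0 members, beside 0.981%. With array medians subtracted, the RPL36 groups overlapped.

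Among proteins of the ribosomal stalk, which recruits translation factors to the large subunit, RPLP1 (200763_s_at) read 14.13, 14.18 and 14.38 in Bf 140 nM and 14.20, 14.09 and 14.35 in DMSO 0.6%. The groups overlapped, with a difference of 0.01 (SE 0.12). RPLP2 had only dim probe sets, at means of 7.51 and 6.49, and RPLP0 had none with a single symbol. RPL11, which joins the ribosome together with 5S ribosomal RNA and can bind MDM2, read 13.57, 13.47 and 13.70 against 13.56, 13.61 and 13.57. Its difference was 0.00098 (SE 0.099), or a ratio of 1.00.

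RPS6, the small subunit protein phosphorylated by S6 kinases, had 4 probe sets. The 3 bright ones differed by 0.05, -0.01 and -0.05. The dim one, 211690_at, had the most positive difference of all members. It read 6.93, 7.40 and 6.91 in Bf 140 nM and 6.80, 6.99 and 6.86 in DMSO 0.6%, a difference of 0.20 (SE 0.15), with the groups overlapping. Bf 140 nM replicate 2 stood highest, and the difference was 0.04 without it. The next most positive were probe sets of RPL37A, RPL35A, RPS28 and RPL14, at 0.12 to 0.15. RPL35A, a large subunit protein, read 6.35, 6.26 and 6.17 in Bf 140 nM and 6.26, 6.19 and 5.91 in DMSO 0.6% at the dim 215249_at, a difference of 0.14 (SE 0.12), or 0.03 without DMSO 0.6% replicate 3. RPL14 read between 12.88 and 13.11 in Bf 140 nM and 12.94, 13.02 and 12.65 in DMSO 0.6% at 200074_s_at, a difference of 0.12 (SE 0.13), and 0.01 without DMSO 0.6% replicate 3, which was lowest there.

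RPS7, a small subunit protein, had probe sets at 200082_s_at and 213941_x_at, with differences of -0.05 and -0.17, both lower in Bf 140 nM in all 3 pairs, though the first was 0.016 after quantile normalisation. The second read 14.04, 13.89 and 14.22 in Bf 140 nM and 14.07, 14.02 and 14.57 in DMSO 0.6%. DMSO 0.6% replicate 3 was highest, and the difference was 0.0017 without it. RPL26L1, a paralog of RPL26, read 11.41, 10.96 and 11.47 against 11.06, 11.16 and 11.73, a difference of -0.03 (SE 0.21) with overlapping groups.

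The 8 members that spanned more than 1 log2 unit over the 6 arrays made up 8 of 90, beside 6.25% of all probe sets. All 8 were highest on DMSO 0.6% replicate 3, where 1.02% of all probe sets both spanned that much and were highest on that array. All 8 had means under 10, and 7 encode large subunit proteins. That array read 1.98 to 4.27 times the median of the other 5 for these probe sets. Among the 62 bright members the widest span was 0.864. The start sites shown above for the genes of the 8 probe sets all carry the TOP pattern, as do those of most member genes.

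RPL38, a large subunit protein known in mice for its part in translating Hox transcripts, had both of the most negative differences. Probe set 221943_x_at read 8.12, 8.40 and 8.64 in Bf 140 nM replicates 1 to 3 and 8.17, 8.70 and 10.02 in DMSO 0.6%. Its difference was -0.57 (SE 0.43), a ratio of 0.673 with a 95% interval of 0.335 to 1.35, and -0.04 without DMSO 0.6% replicate 3. Probe set 202028_s_at read 8.45, 8.74 and 9.22 against 8.61, 8.99 and 10.41, a difference of -0.53 (SE 0.45) and 0.0099 without that array. The bright RPL38 probe set, 202029_x_at, had no such peak. It read 13.88, 13.76 and 14.07 against 13.83, 13.70 and 13.86, higher in Bf 140 nM in all 3 pairs by a mean of 0.11 (SE 0.12). That difference was 0.02 without Bf 140 nM replicate 3.

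RPL37A, a zinc-binding protein of the large subunit, had 1 probe set of this kind. Probe set 214041_x_at read 7.26, 8.33 and 8.83 in Bf 140 nM and 7.59, 8.51 and 9.75 in DMSO 0.6%. Its difference was -0.48 (SE 0.58), 0.09 without DMSO 0.6% replicate 3 and -0.04 without Bf 140 nM replicate 1. Bf 140 nM was lower in each pair, and in both groups the replicate 1 array was lowest and the replicate 3 array highest. The bright 201429_s_at was also highest on DMSO 0.6% replicate 3, at 15.05, and differed by -0.08 (SE 0.17), or 0.10 without that array. The dim 213459_at differed by 0.15 (SE 0.14), or 0.05 without Bf 140 nM replicate 3 or DMSO 0.6% replicate 1.

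RPL27A, also of the large subunit, showed the highest single reading against its fellows. Probe set 212044_s_at read 7.93, 8.05 and 8.71 against 7.80, 7.98 and 10.07, a difference of -0.38 (SE 0.57), and 0.34 without DMSO 0.6% replicate 3. RPLP2 (200908_s_at) read 7.13, 7.39 and 7.55 against 7.11, 7.23 and 8.68, and RPL14 (219138_at) read 7.30, 7.34 and 7.72 against 7.27, 7.35 and 8.51. Their differences of -0.32 and -0.25 became 0.19 and 0.14 without that array. RPL31 (221593_s_at), of the large subunit, read 9.08, 9.08 and 9.70 against 8.67, 9.33 and 10.07. RPS10 (214001_x_at), of the small subunit, read 7.49, 7.93 and 7.74 against 7.43, 7.39 and 8.57. Each differed by -0.07. Without that array they differed by 0.29 and 0.31. The beta-actin and GAPDH 3' minus 5' differences were also highest on it, and their part in these readings was not tested.

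**Figure D4:**
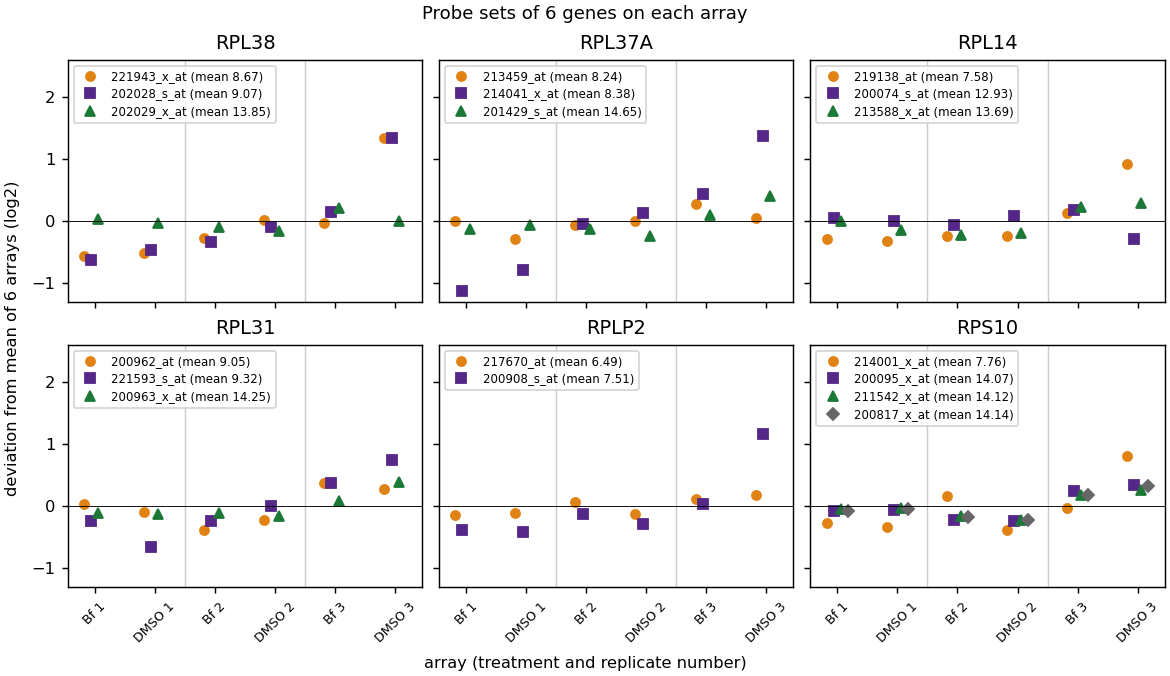
Deviation of each probe set from its own mean over the 6 arrays (log2 scale) for RPL38, RPL37A, RPL14, RPL31, RPLP2 and RPS10, with arrays ordered by replicate number and the mean in the key. On DMSO 0.6% replicate 3, both dim probe sets of RPL38 and 1 dim probe set each of RPL37A, RPL14, RPLP2 and RPS10 stand 0.8 or more above their mean. The dim RPL37A 213459_at and RPLP2 217670_at and all bright probe sets shown stay within 0.5.

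Several probe sets of one gene were compared by their differences. Of the 52 genes, 29 had 1 probe set and 23 had 2 or more, together 61 probe sets. In 8 of the 23 genes every probe set was lower in Bf 140 nM, in 1 gene, RPS9, every one was higher, and in 14 the signs were mixed. After quantile normalisation these counts were 5, 5 and 13. The range of differences within a gene had a median of 0.12. It exceeded 0.2 in RPL38 (0.68), RPL37A (0.63), RPL14 (0.37), RPLP2 (0.35), RPS6 (0.25) and RPS28 (0.23), each of which has at least 1 probe set with a mean under 10. Such a probe set was present in 12 of the 23 genes, 6 of which had a range above 0.2, and in the other 11 genes no range exceeded 0.2. RPS28, a small subunit protein, had a dim probe set higher in all 3 pairs (208903_at, 0.14) and another lower in all 3 (208902_s_at, -0.09). They were 0.06 without DMSO 0.6% replicate 2 and -0.02 without DMSO 0.6% replicate 1.

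The genes with 3 or more probe sets that lay closest together were RPS10, RPL22 and RPL31. The 4 probe sets of RPS10 differed by -0.07 to -0.01, a range of 0.064, although 1 of them was dim and spread widely. After quantile normalisation 3 of these 4 were above 0, by 0.014 to 0.054. RPL22, a large subunit protein with the paralog RPL22L1, had 5 probe sets, with differences of -0.12 to -0.01, all below 0 under both scalings too. Without DMSO 0.6% replicate 3 the lowest of these, 221775_x_at, was 0.0021. The 3 probe sets of RPL31 ranged over 0.11. By probe set type, the medians were -0.0020 for the 24 plain _at probe sets, -0.06 for the 34 ending in _s_at and -0.04 for the 32 ending in _x_at, the last of which may bind several related transcripts, ribosomal protein pseudogenes included.

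**Figure D5:**
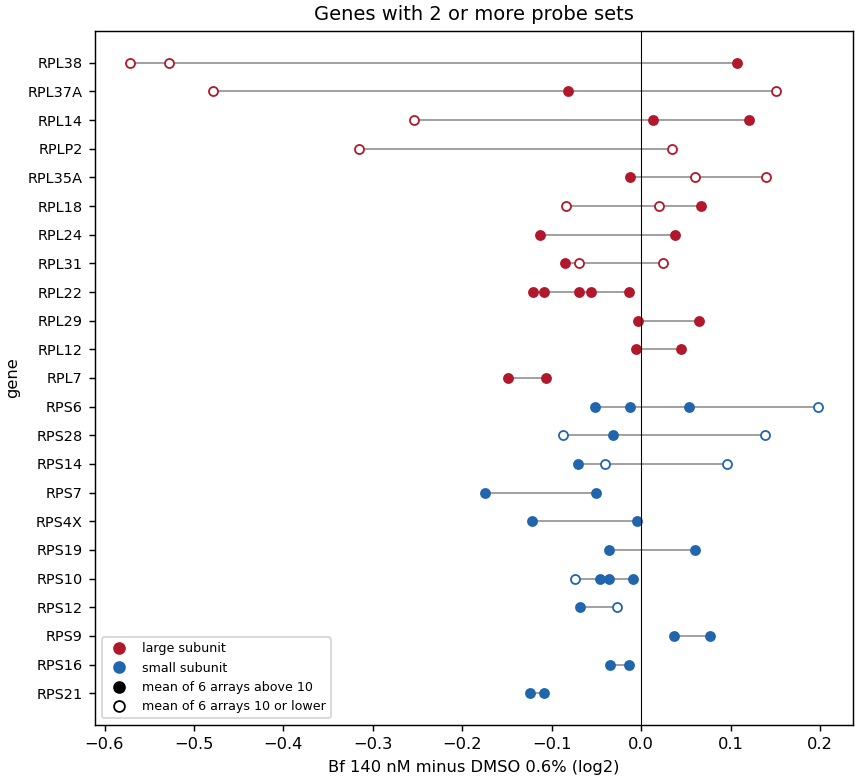
Difference between Bf 140 nM and DMSO 0.6% (log2 scale) of every probe set for the 23 genes with 2 or more, one gene per line, grouped by subunit. Filled points are probe sets with a mean over the 6 arrays above 10, and open points those at 10 or lower. RPL38 and RPL37A have the widest ranges, at 0.68 and 0.63, and most genes lie within 0.2.

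Genes with and without the pattern at the annotated start had close medians. The median of gene median differences was -0.041 over the 33 genes with the pattern, of which 19 were below 0, and -0.042 over the 13 without it, of which 10 were below 0. Among genes whose loss causes Diamond-Blackfan anaemia, an inherited failure of red cell production, 6 of 10 were measured by 13 probe sets, with 8 below and 5 above 0 and a median of -0.01. RPS19, the gene first linked to it, differed by -0.04 and 0.06 at its 2 probe sets.

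Other parts of the translation machinery held no call either. Other genes with TOP messenger RNAs, 12 of 15 listed, had 22 of 35 probe sets below 0 and a median of -0.03. All 5 probe sets of TPT1, the translationally controlled tumour protein, were below 0, at -0.16 to -0.02, and 4 of 5 were after quantile normalisation. Without DMSO 0.6% replicate 3 only 1 of the 5 was below 0. Factors that build ribosomes in the nucleolus, 19 of 26 listed, had 11 of 26 probe sets below 0 and a median of 0.01, with pair medians of 0.03, -0.17 and 0.19. Paralogs outside the rule (RPL3L, RPL10L, RPL36AL, RPL39L and RPS27L) had 1 of 5 probe sets below 0 and a median of 0.05. FAU, whose product is cut to release a small subunit protein, differed by 0.05. In none of these lists did a probe set have an adjusted p under 0.10 or an unadjusted p under 0.05.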

How the data were processed

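Values were read from the deposited series table, which holds normalised intensities on a log2-like scale. The authors took intensities from GCOS, the scanner software, and normalised them in R 2.5.0 with vsn, which stabilises the variance. The method that summarised single probes is not given in the sources. The table held 22277 probe sets, of which 62 controls were left out of the tests. With arrays there is no read depth, and precision is limited by their number. The groups were compared with limma 3.58.1 in R 4.3.3, unpaired and two-sided, with Benjamini-Hochberg adjustment over all 22215 probe sets and a threshold of 0.10, after the false discovery rate of the study. The study's SAM test and its detection call filter were not run. The fit was tested on simulated data with independent noise on each array. Those data held no deviation shared by same-numbered arrays, so they say nothing on the effect of pairing. Fold ranges are 2 to the power of the log2-scale difference and understate changes of dim probe sets.

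Gene symbols came from the platform annotation and were updated with a RefSeq table, which held all 52. Start sites came from RefSeq (GRCh38.p14). Members and lists were chosen with earlier results of these data known. Named in the text are probe sets whose groups did not overlap, the 5 most positive and 5 most negative differences, the genes with 3 or more probe sets that had the 5 widest or 3 narrowest ranges, and 14 genes chosen by role, of which 8 had a member. Members spanning more than 1 log2 unit or on one side of 0 in all 3 pairs, RPS9, RPS19 and TPT1 were named after their values were seen. Arrays of the same replicate number deviated together over all probe sets (r = 0.60, 0.23 and 0.57), each above the 0.1 set for pairing, so the numbers were taken as pairs. The match was weak for replicate 2, since Bf 140 nM replicate 1 correlated with DMSO 0.6% replicate 2 at 0.26, and over the members alone the replicate 2 arrays gave 0.07, below 0.09 for Bf 140 nM replicate 2 with DMSO 0.6% replicate 3. The pairing comes from the titles' replicate numbers and this check. Alternatives were the replicate block, quantile normalisation, centring, a level filter, a beta-actin covariate, leaving out each array, and other choices of probe sets.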

Additional observations from a re-analysis of the deposited data

How the results depend on the processing

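No alternative brought a ribosomal protein probe set, or any other, past the threshold, and the small medians changed with the setting. The members' median difference was -0.071 with array medians subtracted, 0.017 with the beta-actin 3' minus 5' difference as a covariate, -0.00065 after quantile normalisation and -0.0020 without probe sets ending in _s_at or _x_at. The large subunit median was 0.020 with the covariate and 0.020 without those probe sets. The small subunit median was 0.0098 with the covariate and 0.014 after quantile normalisation. The large minus small difference was 0.061 without those probe sets. Leaving out arrays (each in turn, and both of replicate number 3, a choice made after seeing the data) gave -0.11 to 0.055 for all members, -0.13 to 0.074 for the large subunit, -0.097 to 0.049 for the small subunit and -0.080 to 0.025 for their difference. The replicate block left the median of all members at -0.038 and changed no call. Other choices of probe sets were made after seeing the data. They added probe sets that also name a small nucleolar RNA or microRNA, or dropped those that span more than 1 log2 unit. Neither moved a median by more than its SD over the 3 pairs. That SD was 0.025 for all members, 0.047 for the large subunit, 0.033 for the small subunit and 0.055 for their difference. It rests on 3 pairs and is a yardstick, not a test. The cause of these shifts was not tested.

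With array medians subtracted, the sign changed for RPL11 200010_at (-0.031), RPL14 213588_x_at (-0.019), RPL31 200962_at (-0.0082), RPLP1 200763_s_at (-0.019). With the beta-actin covariate, the sign changed for RPL26L1 218830_at (0.069), RPL31 200963_x_at (0.0051), RPL31 221593_s_at (0.13), RPL37A 201429_s_at (0.0099), RPS10 200095_x_at (0.054), RPS10 200817_x_at (0.033), RPS10 211542_x_at (0.060), RPS10 214001_x_at (0.11), RPS28 208904_s_at (0.0026), RPS6 200081_s_at (-0.012), RPS6 201254_x_at (0.0098). After quantile normalisation, the sign changed for RPL31 200962_at (-0.059), RPL37A 201429_s_at (0.020), RPS10 200095_x_at (0.023), RPS10 200817_x_at (0.014), RPS10 211542_x_at (0.054), RPS6 201254_x_at (0.020), RPS7 200082_s_at (0.016). Leaving out arrays also changed the sign, both for many of the probe sets just named and for others. Their lowest and highest values were -0.064 to 0.055 for RPL11 200010_at, -0.048 to 0.20 for RPL14 200074_s_at, -0.10 to 0.17 for RPL14 213588_x_at, -0.47 to 0.14 for RPL14 219138_at, -0.20 to 0.010 for RPL22 208768_x_at, -0.26 to 0.058 for RPL22 214042_s_at, -0.12 to 0.0082 for RPL22 220960_x_at, -0.15 to 0.20 for RPL22 221726_at, -0.21 to 0.0021 for RPL22 221775_x_at, -0.16 to 0.17 for RPL26L1 218830_at. The same ranges were -0.79 to 0.34 for RPL27A 212044_s_at, -0.16 to 0.22 for RPL31 200962_at, -0.18 to 0.091 for RPL31 200963_x_at, -0.41 to 0.29 for RPL31 221593_s_at, -0.22 to 0.099 for RPL37A 201429_s_at, -0.99 to 0.088 for RPL37A 214041_x_at, -0.89 to 0.0099 for RPL38 202028_s_at, -0.062 to 0.082 for RPLP1 200763_s_at, -0.60 to 0.19 for RPLP2 200908_s_at, -0.020 to 0.13 for RPLP2 217670_at. Further ranges were -0.17 to 0.13 for RPS10 200095_x_at, -0.16 to 0.10 for RPS10 200817_x_at, -0.13 to 0.12 for RPS10 211542_x_at, -0.28 to 0.31 for RPS10 214001_x_at, -0.14 to 0.079 for RPS28 208904_s_at, -0.094 to 0.15 for RPS6 200081_s_at, -0.067 to 0.036 for RPS6 201254_x_at, -0.11 to 0.0038 for RPS6 209134_s_at, -0.11 to 0.034 for RPS7 200082_s_at, -0.28 to 0.0017 for RPS7 213941_x_at.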
